A study of Mus musculus with 4 samples.

Results

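Described here in cultured mouse ureters are 9 genes grouped as nephron progenitor and renal mesenchyme genes. These are Six2, Cited1, Osr1, Osr2, Eya1, Meox1, Meox2, Crym and Wt1. They were taken by name: every probe whose gene name on the array equals one of the 9 symbols was used, which gave 11 of 39429 gene probes and 9 of 29924 gene names. The rule itself reads names and no signal, although the 9 genes were chosen with earlier results of these data known. Six2 is printed as 3 probes and each of the other genes as 1 probe.

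Ureters came from wild-type NMRI mouse embryos at E12.5 (embryonic day), of a sex that was not determined, and were kept as explants for 18 h. The treated explants received 10 µM IWP-2, which blocks the enzyme Porcupine and so the release of WNT ligands by any cell of the explant, and the control explants received the solvent DMSO. Each of 4 two-colour arrays compared RNA of 1 treated pool of ureters with RNA of 1 control pool. The treated RNA was red on arrays 1 and 3 and green on arrays 2 and 4. The labels and the methods count 4 replicates at this stage, whereas other passages of the study speak of 2 pools or 2 arrays. If arrays share a pool, n = 4 counts arrays and the p values are too small.

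In the developing kidney, nephron progenitors form a cap of mesenchyme around the tips of the branching epithelium. Six2 keeps these cells undifferentiated, Cited1 marks the least advanced of them, and Osr1, Eya1 and Wt1 act earlier or alongside to form and maintain the mesenchyme. WNT signals from the epithelium both renew the progenitors and push them towards nephrons. The ureter below the kidney is surrounded by a different mesenchyme, marked by Tbx18, which becomes smooth muscle and fibroblasts. According to the methods, the ureters were clipped off at the junction with the kidney and inspected by eye to exclude other tissue. The explants hold epithelium and mesenchyme, and whether mesothelium was present is not stated. In such bulk RNA fewer cells of a type and less RNA per cell cannot be told apart.

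With IWP-2, Six2 rose more than 2-fold, Crym fell 1.94-fold, and the other members that passed the test rose by 1.12-fold to 1.39-fold. All 9 genes were well above background and were tested. Of these, 6 passed the test as higher (Six2, Meox2, Meox1, Osr1, Eya1 and Cited1), Crym passed as lower, and Osr2 and Wt1 did not pass. The test was limma on the log2 ratio of IWP-2 over control with a term for the dye, adjusted by Benjamini-Hochberg over 22455 genes, with 0.05 as the threshold. By this test 18.1% of all genes were higher and 15.0% were lower, so that 6 of 9 higher and 1 of 9 lower is to be read against these shares. Since the 9 genes were chosen with earlier results of these data known, these counts are not an independent test. The median log2 ratio was 0.17 over the 9 genes and 0.001 over all genes. At the level of probes, 7 of the 10 tested were higher, against 16.8% of all probes, and 1 was lower, against 15.9%. Six2, Cited1, Osr1, Meox1 and Meox2 were higher on each of the 4 arrays, which held for 22.3% of all genes, and Crym was lower on each.

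**Figure D1:**
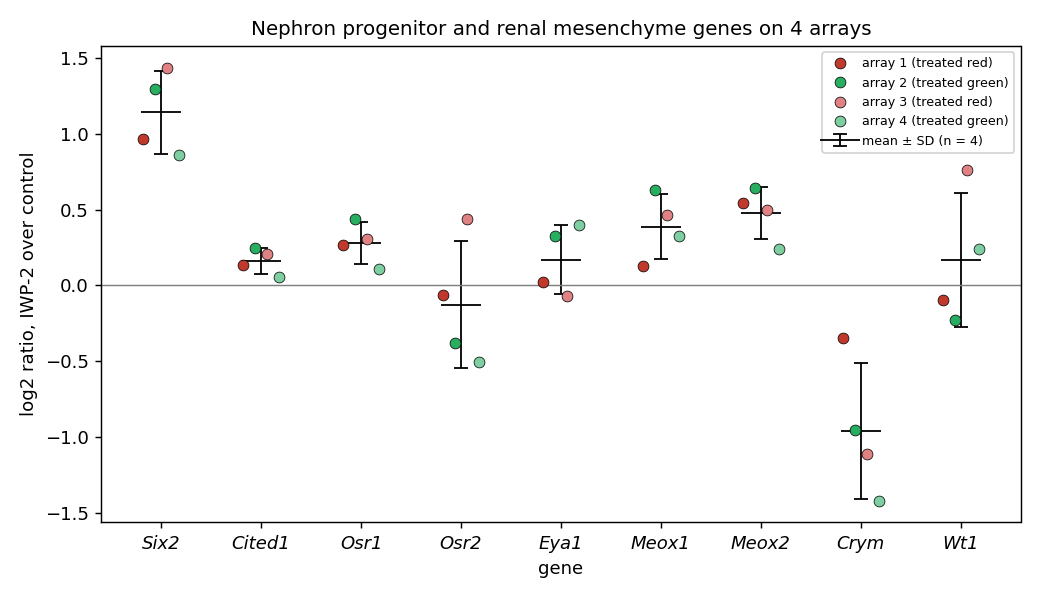
Log2 ratio of IWP-2 over control (y axis) of the 9 genes (x axis) on each of the 4 arrays, coloured by the dye order, with the mean and SD of the 4 arrays in black. Six2 lies between 0.86 and 1.44 and Crym between -1.42 and -0.35, whereas the points of Osr2, Eya1 and Wt1 lie on both sides of 0.

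Six2, the homeobox factor that maintains nephron progenitors, is measured by 3 probes on the minus strand of chromosome 17 (mm9). In the order of transcription these begin with the upstream probe, at chr17:86083986-86084045, followed by the middle probe at chr17:86083634-86083693 and the downstream probe at chr17:86082307-86082366. The first 30 bases of each are shown because the 3 probes read different stretches and gave different values.

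Six2 upstream probe: ggtgtcatctatttgagttcctttctcaac

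Six2 middle probe: ccattttacgccctcatgtgaatgttcgtc

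Six2 downstream probe: attgtctgaaagtctgtctggagaattcca

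The middle probe was the brightest and stood for the gene. Its processed signal, the background-subtracted and dye-normalised intensity of the scanner software, was 107.4, 141, 196 and 189 in the control channels of arrays 1 to 4 and 228, 372, 580 and 364 in the treated channels. The lowest treated value was above the highest control value. On the log2 scale of normalised channel levels, the control lay between 9.10 and 9.58 and the treated channels between 10.06 and 11.01. This separation of 4 treated from 4 control levels was seen among the 9 genes for Six2 and Meox1, and for 11.0% of all genes in the upward direction.

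The log2 ratios of the middle Six2 probe were 0.97, 1.30, 1.44 and 0.86 on arrays 1 to 4. The mean was 1.14 ± 0.27 (SD, n = 4), a 2.20-fold rise with a 95% interval of 0.91 to 1.37 on the log2 scale (limma adjusted p = 0.00054). All 15 spots that were used showed a higher treated signal. The rise passed the test under each of 14 alternatives that gave a value, with means between 0.75 and 1.26. Among all genes tested, 23 had a rise at least as large.

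The upstream Six2 probe rose as well, by a smaller ratio. Its processed signal was 7.97, 11.1, 13.9 and 13.5 in the control and 11.4, 19.5, 30.03 and 21.6 with IWP-2. The log2 ratios were 0.13, 0.42, 0.54 and 0.33, with a mean of 0.35 ± 0.17 (SD, n = 4; limma adjusted p over all probes = 0.00988). Here the control and treated channel levels overlapped. The call was lost with the deposited table of fold changes (adjusted p = 0.24) and with the 8 channels taken as separate samples (adjusted p = 0.061). The downstream probe was not well above background in the control on any array and in the treated channel on 1 array, so that it was not tested. Its ratios were 0.13, 0.22, 0.12 and -0.01. With the processed signals, which lay near the background, they were 0.66, 1.41, 0.45 and 0.02.

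The difference between the middle and the upstream Six2 probe was 0.84, 0.88, 0.90 and 0.54, with a mean of 0.79 ± 0.17 (SD, n = 4). The exact sign permutation test over 4 arrays gave p = 0.12, the smallest value this design allows, so that it could not pass. The starts of these probes are 352 bases apart. The size of the difference moved with the background correction. With an offset of 10 in place of 50 it was 0.68 ± 0.18, and with the processed signals, where the upstream probe rose by 0.78 ± 0.25, it was 0.47 ± 0.14. The middle probe stayed ahead on all 4 arrays in each of these settings.

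Cited1, a transcriptional co-regulator that marks the earliest nephron progenitors (chrX:99442776-99442835, mm9), gave a small ratio. The control processed signals were 2098, 2938, 2988 and 2996, and the treated signals 2340, 3426, 3516 and 3090.3. The treated channel was brighter on each array, while the 2 groups overlapped. The ratios were 0.14, 0.25, 0.21 and 0.05, with a mean of 0.16 ± 0.09 (SD, n = 4; limma adjusted p = 0.0427). This call was lost in 9 of 14 alternatives, with adjusted p up to 0.48. Among them were the fits without array 1, 2 or 3, with means of 0.18, 0.11 and 0.14 and adjusted p of 0.084, 0.19 and 0.15.

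Osr1, an odd-skipped zinc finger factor of the intermediate mesoderm from which kidney and ureter arise (chr12:9587390-9587449), rose modestly. Its ratios were 0.26, 0.44, 0.30 and 0.11, with a mean of 0.28 ± 0.14 (SD, n = 4; limma adjusted p = 0.0148). Processed signals ran from 878 to 1373 in the control and from 1067 to 1524 with IWP-2, and the groups overlapped. The call was lost in 2 of 14 alternatives. One of these left out array 3, with a mean of 0.27 and an adjusted p of 0.0537.

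Osr2, the second odd-skipped factor, did not move in 1 direction. Its probe maps to chr15:35230691-35231706 and so spans more genome than its own 60 bases, as a probe across a splice junction would. The control processed signals were 52.4, 69.4, 88.2 and 84.9 and the treated signals 48.8, 49.3, 128 and 55.5. Array 3 had the highest treated value, and the treated channel was the lower one on the other 3 arrays. The ratios were -0.07, -0.38, 0.44 and -0.50, with a mean of -0.13 ± 0.42 (SD, n = 4; limma adjusted p = 0.27), or of 0.18 over arrays 1 and 3 and -0.44 over arrays 2 and 4. The dye term of Osr2 had an unadjusted p of 0.0075 by limma and an adjusted p of 0.17. Without array 3 the mean was -0.25 and the gene passed as lower (adjusted p = 0.0233), which then made 2 of the 9 genes lower.

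Meox1 and Meox2 are related homeobox factors best known from somites, and Meox1 is also used as a marker of nephron progenitors. For Meox1 (chr11:101738847-101738906) the control processed signals were 61.1, 44.2, 62.0 and 83.5 and the treated signals 68.8, 77.1, 95.2 and 111. The ratios were 0.13, 0.63, 0.47 and 0.32, with a mean of 0.39 ± 0.21 (SD, n = 4; limma adjusted p = 0.00967). The normalised channel levels of the treated and control groups did not overlap, although the lowest treated level exceeded the highest control level by little (8.55 against 8.54).

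For Meox2 (chr12:37905809-37905868) the control processed signals were 58.9, 38.8, 58.7 and 83.1 and the treated signals 94.6, 69.0, 92.3 and 103. The ratios were 0.54, 0.64, 0.50 and 0.24, with a mean of 0.48 ± 0.17 (SD, n = 4; limma adjusted p = 0.00341). After Six2 this was the largest rise among the 9 genes. All spots that were used, 15 for Meox1 and 14 for Meox2, showed a higher treated signal. Each of these calls was lost in 1 of 13 alternatives, the deposited table of rounded fold changes.

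**Figure D2:**
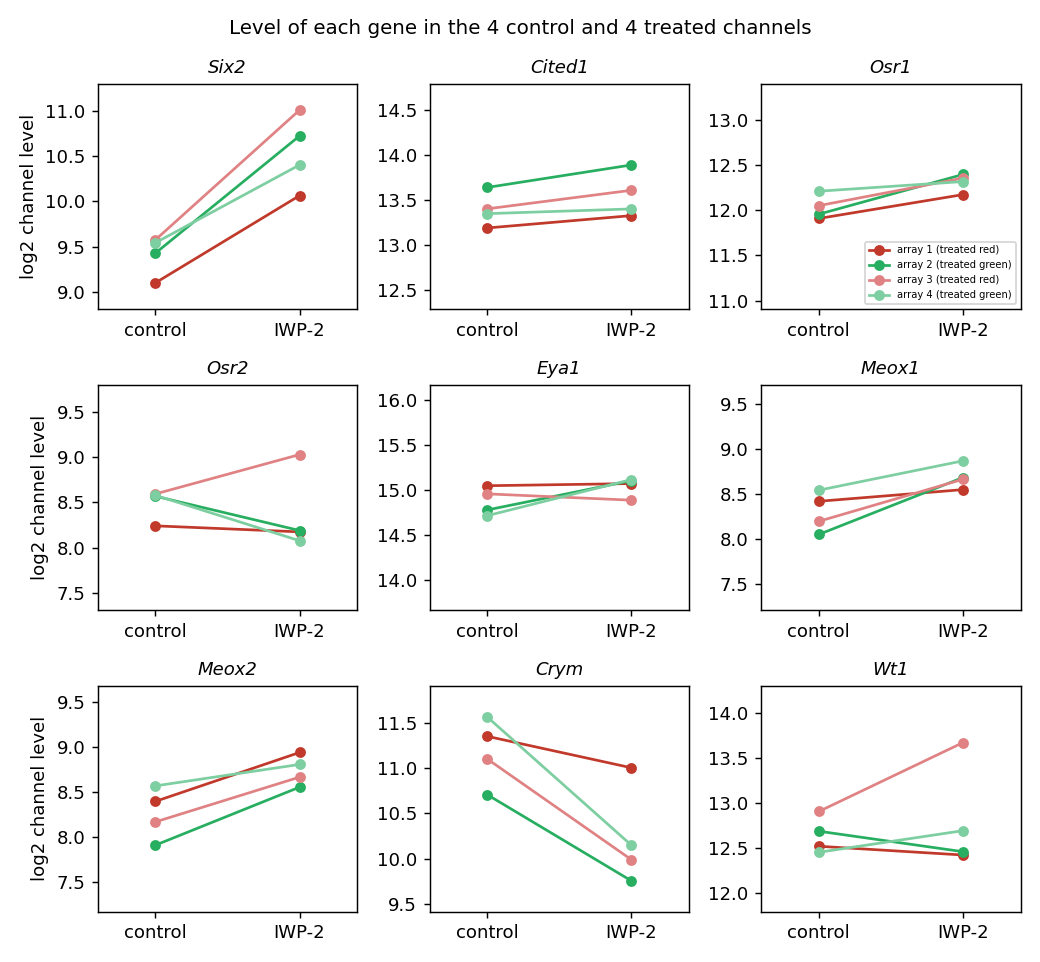
Normalised log2 channel level (y axis, each panel spanning the same range) of the 9 genes in the control and the IWP-2 channel, with a line for each array. The 4 lines of Six2 rise and those of Crym fall, the treated levels of Six2 (10.06 to 11.01) lie above its control levels (9.10 to 9.58), and Wt1 and Osr2 rise clearly on array 3.

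Eya1, a partner of Six2 that is needed for the kidney mesenchyme to form, passed the test, but its ratios followed the dye order. Its control processed signals were 7823, 6806, 9031 and 8292 and the treated signals 7998, 8383, 8912 and 10695. The ratios were 0.02 and -0.07 on arrays 1 and 3, where the treated RNA was red, and 0.32 and 0.40 on arrays 2 and 4, where it was green. The mean was 0.17 ± 0.23 (SD, n = 4; limma adjusted p = 0.0223), with a mean of -0.02 over arrays 1 and 3 and of 0.36 over arrays 2 and 4. The dye term itself had an unadjusted p of 0.0028 by limma and an adjusted p of 0.15. The call was lost in 6 of 14 alternatives, among them the fit without a dye term (adjusted p = 0.19) and those without array 1 (mean 0.15, adjusted p = 0.096) or array 4 (mean 0.15, adjusted p = 0.092).

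The Eya1 probe (chr1:14159982-14160041, minus strand) is unusual in sequence. Its bases 27 to 60 are a run of alternating G and T, and the first 30 bases are shown with the start of this run in capitals.

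Eya1 probe: ttcatttttctaatttgtgtacgtgaGTGT

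In the other 10 probes of the 9 genes the longest run of this kind, or of its complement, was 6 bases or less. A run of 20 or more bases of alternating G and T was held by 52 of the tested probes, or 0.174%, Eya1 included. This group was formed after the Eya1 values had been seen. The other 51 probes, which carry 51 different names, had median ratios of 0.03, 0.25, -0.05 and 0.33 on arrays 1 to 4. On each of these 51 probes both arrays with treated RNA in green lay above both arrays with treated RNA in red, an order that 26.6% of all tested probes showed. Their median over 4 arrays was 0.15, 3 of the 51 had a mean above that of Eya1, and 40 of the 51 passed as higher and 0 as lower. The 24 tested probes with a run of alternating C and A had medians of 0.01, 0.24, -0.11 and 0.28, and 24 of 24 showed the same order of arrays, while 1 of the 24 passed as higher and 0 as lower. The part of the repeat in the Eya1 ratio was not tested, and no second Eya1 probe is printed on the array.

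**Figure D3:**
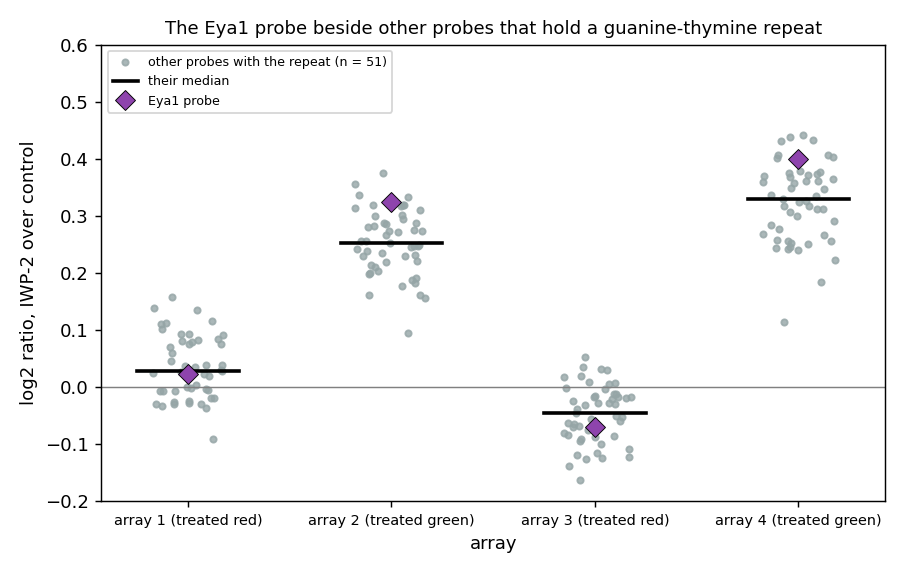
Log2 ratio of IWP-2 over control (y axis) of the Eya1 probe (diamonds) and of the other 51 tested probes with a run of 20 or more alternating G and T bases (grey points, black bar at their median) on each array (x axis). Both sit near 0 on arrays 1 and 3 and above 0 on arrays 2 and 4.

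Crym, which encodes mu-crystallin, a cytosolic thyroid hormone binding protein, was the member that fell. Its probe lies at chr7:127329970-127330029. The control processed signals were 613, 393, 640 and 884 and the treated signals 487, 194, 291 and 321. The treated channel was lower on each array and in all 16 spots, while array 1 had both the smallest fall and the highest treated level, so that the groups overlapped. The ratios were -0.35, -0.95, -1.11 and -1.42, with a mean of -0.96 ± 0.45 (SD, n = 4), a 1.94-fold fall with a 95% interval of -1.27 to -0.64 on the log2 scale (limma adjusted p = 0.00294). The call was lost in 1 of 14 alternatives, the deposited table of rounded fold changes (adjusted p = 0.0897). Among all genes tested, 183 had a fall at least as large.

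Wt1, a zinc finger factor of nephron progenitors, podocytes, mesothelium and gonad (chr2:105013656-105013715), was decided by single arrays. The control processed signals were 1286, 1476, 2111 and 1551 and the treated signals 1203, 1258, 3659 and 1842. Array 3 had the highest value in both groups. The ratios were -0.10, -0.23, 0.76 and 0.24, with a mean of 0.17 ± 0.44 (SD, n = 4; limma adjusted p = 0.40). The 4 spots of an array lay close together, with SDs between 0.0053 and 0.029, far below the spread between arrays. Without array 1 the mean was 0.38 and Wt1 passed as higher (adjusted p = 0.0311), and without array 3 the mean was -0.05.

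The genes whose 8 channel levels were nearest to those of Wt1, looked for after its values were seen, were Wt1os, Podxl, Lrrn4, Crb2 and Nxph3, with distances of 0.18 to 0.46 log2 units against a size of 1.10 for Wt1 itself. Wt1os, the antisense transcript beside Wt1, had ratios of -0.04, -0.25, 0.76 and 0.11. Podxl, which encodes a surface protein of podocytes and mesothelium, had ratios of -0.24, -0.22, 0.77 and 0.21. The mesothelial marker Lrrn4 had 0.22, 0.03, 0.74 and 0.04, and the mesothelial marker Upk3b 0.35, 0.08, 1.46 and 0.21. Crb2 had ratios of 0.15, -0.22, 1.02 and 0.10, and Nxph3 had 0.09, -0.27, 0.67 and -0.28. Each of these genes was highest on array 3. Msln, a further mesothelial marker, was also highest there, at 0.48. Upk3b and Msln were not among the nearest. The gonadal genes of the same list did not peak on array 3, with ratios there of 0.16 for Lhx9, 0.29 for Nr5a1 and -0.06 for Gata4. Whether a different share of mesothelium in the array 3 pools had a part in the Wt1 values was not tested.

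**Figure D4:**
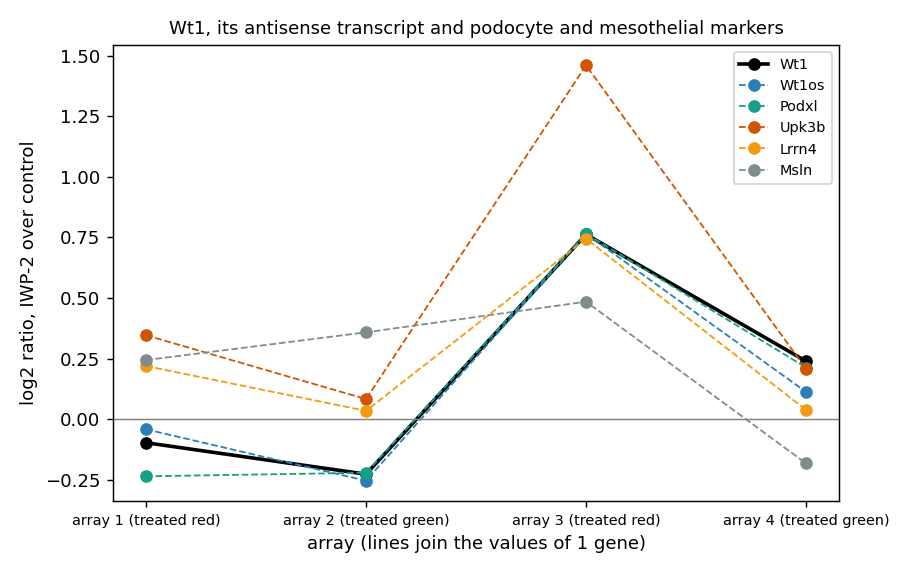
Log2 ratio of IWP-2 over control (y axis) of Wt1, its antisense transcript Wt1os, Podxl, Upk3b, Lrrn4 and Msln on each array (x axis). The 6 genes have their highest ratio on array 3, with 0.76 for Wt1 and 1.46 for Upk3b.

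Context came from 10 lists with 79 genes of related tissues and functions, and 76 of these genes could be tested. Among 11 other genes of the cap mesenchyme 10 were tested, of which 4 were higher and 4 lower, with a median of 0.004. Itga8, an integrin of this mesenchyme, rose by 0.64 ± 0.12 (SD, n = 4). Tmem100 fell by 0.42 ± 0.23. Gdnf, the ligand that attracts the ureteric bud, fell by 0.16 ± 0.18 (adjusted p = 0.0368), and Sall1, a zinc finger factor of the progenitors, had a ratio of 0.06 ± 0.09 (adjusted p = 0.39). The summed processed signal of the list was 11946 to 16012 in the control and 14903 to 19703 with IWP-2.

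Of 8 genes of the induced nephron, 4 were higher and 1 lower, with a median of 0.15. Emx2 rose by 0.63 ± 0.15, Bmp7 by 0.42 ± 0.06 and Pax8 by 0.40 ± 0.25. In ureters lacking mesenchymal Ctnnb1, the study found raised Emx2, Pax8 and Lhx1 in the ureteric epithelium by in situ hybridisation. These 3 genes of the list therefore do not mark nephrons alone in this tissue. Cited1 and Wt1 were also among the genes raised on the arrays of those ureters, which were taken at a later stage. The study could not reliably detect either by in situ hybridisation, in control or mutant. It described Sall1 as spotty in the mesenchyme around the epithelium in both. Of 6 podocyte genes 3 were higher and 0 lower, with a median of 0.14 and a summed signal of 1609 to 2281 in the control and 2153 to 3184 with IWP-2. Synpo, an actin-binding protein of podocytes, rose by 0.30 ± 0.12. The defining podocyte gene Nphs1 was dim, with processed signals of 7.26 to 13.8, and had a ratio of 0.07 ± 0.12 (adjusted p = 0.32).

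The renal stroma list, with 4 of 8 genes higher, 1 lower and a median of 0.18, had Tcf21 falling by 0.67 ± 0.11, Aldh1a2 rising by 0.63 ± 0.11 and Meis2 by 0.38 ± 0.22. Foxd1, the defining stromal factor, rose by 0.31 ± 0.11 (adjusted p = 0.00518). According to the study, Aldh1a2 and Ecm1 of this list are also expressed in the ureteric mesenchyme. Ecm1 had a ratio of 0.04 ± 0.16 and did not pass. The list summed to 70526 to 93498 in the control and 78338 to 106504 with IWP-2. Of the 9 genes listed for the ureteric mesenchyme 8 fell and 0 rose, with a median of -0.74. Foxf1 fell by 2.24 ± 0.31, Bmp4 by 1.31 ± 0.12, Tshz3 by 1.21 ± 0.81 and Tbx18 by 0.74 ± 0.26. The Tshz3 ratios followed the dye order, with -0.97 and -0.17 on arrays 1 and 3 and -1.95 and -1.76 on arrays 2 and 4. The ureteric mesenchyme list summed to 56842 to 77599 in the control and 28578 to 38873 with IWP-2, so that the groups did not overlap. Of these sums Bmp4 alone made up 27091 to 41187 and 10506 to 15457. The study itself reports Foxf1, Bmp4 and Ptch1 as lowered by IWP-2 at this stage, so that their fall was known in advance. It also reports Tbx18 and Sox9 as lost in ureters lacking mesenchymal Ctnnb1, and describes Tbx2 and Tbx3 as dependent on Ctnnb1. The count of 8 falling is therefore not independent of what was known of these genes. Tbx2 had a ratio of -0.13 ± 0.11 and did not pass.

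All 8 genes of the ureteric epithelium were higher, with a median of 0.32, among them Gata3 by 0.56 ± 0.25, Cdh1 by 0.34 ± 0.07 and Epcam by 0.34 ± 0.14. Their sum was 42108 to 55110 in the control and 49540 to 71799 with IWP-2. Of 6 genes of mesothelium and gonad 3 were higher and 0 lower, with a median of 0.25 and sums of 391 to 646 and 484 to 939. Upk3b rose by 0.52 ± 0.63 (adjusted p = 0.0483), Lhx9 by 0.41 ± 0.18 and Nr5a1 by 0.25 ± 0.05. Upk3b had control processed signals of 12.2 to 44.7, and its ratio was 1.46 on array 3 and 0.08 to 0.35 on the others. Lhx9 was dim in the control, at 6.03 to 8.58, and well above background there on 3 arrays. The part that a changed mix of these tissues had in the values of the 9 genes was not tested.

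Of the somite and skeletal muscle genes, 5 of 6 were tested, 0 were higher and 1 was lower. This was Foxc2, also a factor of the kidney mesenchyme, which fell by 0.79 ± 0.28, while the defining muscle gene Myod1 had a ratio of -0.04 ± 0.18 (adjusted p = 0.64). The list summed to 10025 to 14301 in the control and 5290 to 7953 with IWP-2, of which Foxc2 alone made up 9817 to 14055 and 5009 to 7654. The other 4 tested genes did not pass. In the list on thyroid hormone 3 of 7 genes fell and 0 rose, with a median of -0.16. Hr, a co-repressor of the hormone receptors, fell by 1.63 ± 0.14 (adjusted p = 2.39e-05), Dio2, which activates the hormone, by 0.69 ± 0.16, and Dio3, which inactivates it, by 0.16 ± 0.07. The receptor genes Thra and Thrb had ratios of 0.01 ± 0.14 and 0.07 ± 0.17 and did not pass.

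Among 10 family relatives of the 9 genes 9 were tested, of which 3 were higher and 2 lower, with a median of 0.03. Dach2, a cofactor in the network of Eya1 and its partners, fell by 0.83 ± 0.22, Cited4 rose by 0.41 ± 0.25 and Cited2 by 0.33 ± 0.03. Six3, the neighbour of Six2 on chromosome 17, was dim, with processed signals of 4.46 to 11.5, and had a ratio of 0.05 ± 0.04 (adjusted p = 0.39).

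**Figure D5:**
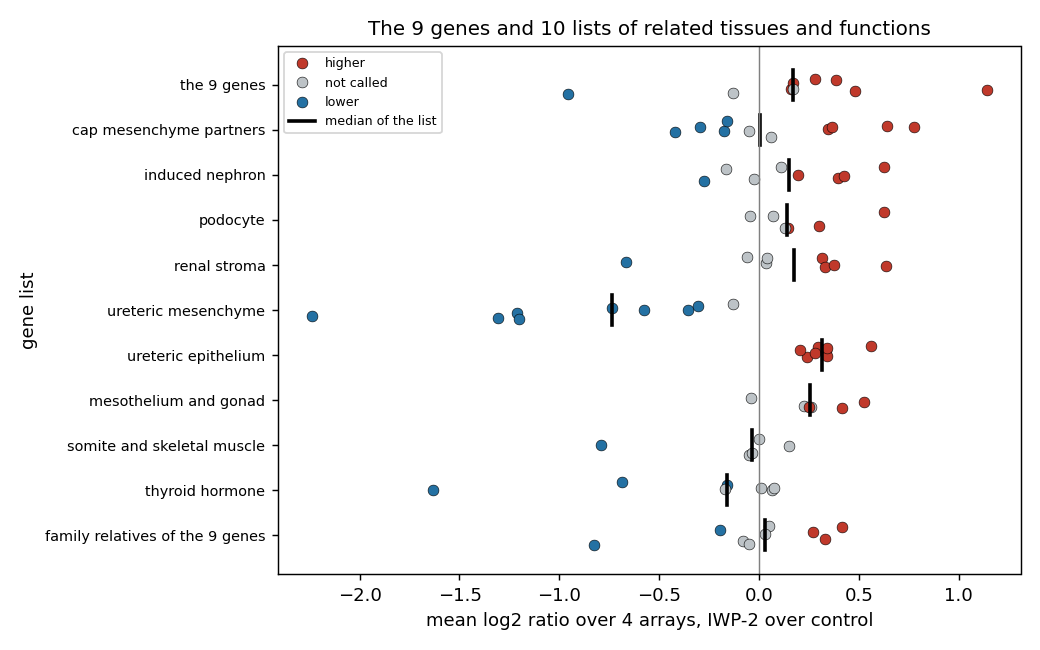
Mean log2 ratio of IWP-2 over control on 4 arrays (x axis) of each tested gene in the 9 genes and in 10 context lists (y axis), coloured by the call, with the median of each list as a black bar. The ureteric mesenchyme list lies at a median of -0.74, the ureteric epithelium list at 0.32 and the 9 genes at 0.17.

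The genes with the most similar pattern over the 8 channels were named for the largest rise and the largest fall. For Six2, whose own size on this measure was 1.80 log2 units, these included Syt13, Cdh9 and Asic2, at distances of 0.38 to 0.54. For Crym, with a size of 1.77, they were Enpep, Maob, Gria1, Fbln2 and Wfdc18, at distances of 0.45 to 0.69.

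The study kept genes whose intensity exceeded 100 and that changed more than 2-fold on each array, and it speaks of 2 arrays for this stage. Here the change was required on all 4 arrays, and 0 of the 9 genes were then kept, against 22 genes higher and 104 lower on the whole array. Six2 was over 2-fold on arrays 1, 2 and 3, with folds of the processed signal of 2.12, 2.65, 2.95 and 1.93. Crym met the limit on arrays 2, 3 and 4, with folds of 0.79, 0.49, 0.46 and 0.36. On any pair of these arrays alone, each gene would have been kept. At 1.5-fold, Six2 was kept as higher.

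Depth in the sense of counts does not apply to arrays, and their number limits the precision. Over the 4 arrays the median raw intensity was 370 to 715 in the control channels and 387 to 698 in the treated channels, with a local background of 28 to 77. The share of probes well above background ranged from 75.1% to 80.0%. Pearson r between the log2 ratios of any pair of arrays was 0.62 to 0.83 across all tested genes, which are not independent replicates.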

How the data were processed

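RNA of ureter pools was hybridised to 4 two-colour Agilent arrays, which lie on 1 slide and were scanned together per the file headers. The authors ran Agilent Feature Extraction 10.7.3.1. The deposited scanner files hold raw and processed intensities for each spot, and the deposited log10 ratio (processed red over green) was used only to check the direction (r = 0.975 across the spots of array 1). The deposited series table holds a signed fold score for each probe and array, rounded, with normalisation and centring not stated. Its median log2 value was 0 on each array, it followed the processed ratios with r of 0.910 to 0.916, and it served as an alternative.

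Raw intensities were corrected with normexp (offset 50) and normalised by loess within arrays (span 0.3) in limma 3.58.1 (R 4.3.3). The offset draws ratios of dim probes towards 0. Outlier spots (3.01% to 3.38%) were dropped, and the 4 spots of a probe averaged. A gene stood by its brightest probe among those well above background in all 4 control or all 4 treated channels, in more than 0.5 of the spots, and with a value on all 4 arrays, which left 29933 probes and 22455 genes. Ratios were fitted with lmFit and eBayes on treatment with a dye term, and adjusted p values are two-sided after Benjamini-Hochberg correction over all genes or probes. Channel levels were scaled between arrays (Aquantile). The fit was tested on simulated data. Each ratio pairs the 2 channels of an array. The 4 arrays were taken as 4 replicates, as labels and methods count them.

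The 9 genes and the 10 context lists were chosen with earlier results of these data known. Named are all probes of the 9 genes, at most 3 genes of each list that passed with the largest ratios, defining markers, and the 5 nearest patterns of the largest rise and fall. Genes named beside Wt1, the receptors Thra and Thrb, the neighbours and the repeat probes were added after their values were seen. Some genes that this rule selects are not reported here. Positions are those of the files (mm9); probes were not assigned to exons or UTRs.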

Additional observations from a re-analysis of the deposited data

How the results depend on the processing

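Every alternative kept the direction of Six2, Cited1, Osr1, Meox1, Meox2 and Crym. With the deposited table of fold changes, which is rounded, 1 gene was higher (Six2) and 0 were lower, and 1 probe was higher and 0 lower; over all genes this table gave 1833 higher and 2050 lower, against 4068 and 3360. With a mean processed signal over 100 the probes higher were 4, since Osr2, Meox1, Meox2 and the upstream Six2 probe were then not tested. Treating the 8 channels as separate samples, with no replicate block, gave 4 probes higher, 4 genes higher and 1 lower, and over all genes 2040 higher and 2069 lower. Cited1, Eya1 and the upstream Six2 probe were lost there (adjusted p = 0.48, 0.083 and 0.061). Leaving out each array in turn gave 4 to 5 genes higher and 1 to 2 lower, and 5 to 6 probes higher and 1 to 2 lower, with 2 lower without array 3 (Crym and Osr2). Wt1 ranged from -0.045 without array 3 to 0.38 without array 1. Eya1 was -0.023 on arrays 1 and 3 alone. At 1.5-fold the filter of the study kept 1 gene as higher. The causes were not tested. Slide and scan as a block were not run, since all 4 arrays share 1 slide and 1 scan. Signal over background limits the outer Six2 probes, whose ratios shrink with the offset.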

Other observations

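On mm9, 36 genes with a tested probe lie next to or second from the 9 genes on either side, as judged by probe position, and of these 6 were higher and 3 lower, with a median log2 ratio of 0.03. These shares are not above those of all genes, 18.1% and 15.0%. These were looked at after the values of the 9 genes. The largest fall was that of Sostdc1, an inhibitor of BMP and WNT signals at 790 kb from Meox2, with -0.60 ± 0.37 (SD, n = 4; limma adjusted p = 0.0146). Six3os1, at 44.3 kb from Six2, had 0.20 ± 0.05 (adjusted p = 0.0119), while Six3, at 36.5 kb, had 0.05 ± 0.04 (adjusted p = 0.39).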
